A study of Mus musculus with 8 samples.

Results

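Cartilage matrix genes and the SOX trio, a group of 10 genes chosen by name, were followed through the cell classes of newborn mouse parietal bone. The group held 7 genes of cartilage matrix proteins (Acan, Comp, Matn1, Matn3, Matn4, Hapln1 and Cnmd) and 3 genes of transcription factors (Sox9, Sox5 and Sox6). All 10 were among the 31053 genes of the deposited matrices. The rule that picks them uses gene names and no measured value, although it was set with earlier results of these data known.

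Cartilage is laid down by chondrocytes, which surround themselves with a network of type II collagen (gene Col2a1) filled with aggrecan. SOX9 is the transcription factor that chondrocytes cannot form without, and SOX5 and SOX6, which resemble each other closely, act with it on cartilage matrix genes. The parietal bone itself forms directly from mesenchyme, without a cartilage template, while cartilage lies next to it in the newborn skull.

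The cells came from the parietal bone of pups 4 to 5 days after birth, and their transcripts were counted with unique molecular identifiers (UMIs) in droplet-based single-cell RNA sequencing. The WT group and the Het G610C group, both of strain B6.129(FVB)-Col1a2tm1Mcbr/J, had 4 libraries each. In every cell the Het pups carried 1 mutant copy of Col1a2, the gene of the α2 chain of type I collagen, in which a glycine is replaced, and they model osteogenesis imperfecta. Kit version 3 was used for S1, S2 (both WT), S3 and S4 (both Het), and kit version 3.1 for S5, S6 (both WT), S7 and S8 (both Het). No group was treated. A library held cells pooled from several pups of 1 genotype, so p-values measure the spread between libraries.

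Of 68625 barcodes, 46420 were kept, those with 500 or more detected genes and less than 10% mitochondrial UMIs. A cell was called Col2a1-high when Col2a1 took over 1% of its UMIs and it was not an osteoblast (OB), which gave 15370 cells, with 6169 of them in S5. The name was checked with a fixed list of chondrocyte markers (Col9a1, Col9a2, Ucma, Chad, Epyc and 6 others). At least 3 of them were found in 99.5% to 100% of these cells in each library. Among cells that were neither Col2a1-high nor OBs the share was 1.65% to 32.0% in S1 to S4. In S5 to S8 that share was 79.2% to 94.7%, so the check cannot settle the name in those libraries. OBs were split by their share of Col1a1 UMIs into 379 early (eOB, under 0.75%), 1217 differentiating (dOB) and 1075 mature OBs (mOB, over 3.5%). The other 28379 cells are called the remaining cells. They included 6608 haematopoietic-like cells, which had at least 3 haematopoietic markers and fewer than 3 of each list of endothelial, mural, fibroblast, erythroid and glial markers. Chondrocyte markers were not part of that rule.

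The libraries differed in composition before any gene was compared. The share of Col2a1-high cells was 2.12% in S1 and 3.15% in S2 (WT), 22.3% in S3 and 15.1% in S4 (Het), and 37.7% to 60.4% in the kit 3.1 libraries. Cells with at least 3 haematopoietic markers made up 56.5% of S1 and 46.5% of S2, against 3.21% to 9.75% of the other libraries. The Col2a1-high cells of WT S5 were shallow, with a median of 1051 UMIs and 58.8% of them under 2000 UMIs, against medians of 4645 to 17974 in the other libraries. Cartilage transcripts were also found in cells of other types: Col2a1 reached 22.7 to 731 CPM in haematopoietic-like cells, where CPM is the gene's share of all UMIs of the class and 10000 CPM is 1%. At least 3 chondrocyte markers were detected in 0.299% to 12.6% of haematopoietic-like cells in the kit 3 libraries and in 66.2% to 91.9% of those in the kit 3.1 libraries. In all, 244 barcodes were shared between libraries, from 1 to 24 for a pair.

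The genes lie on 9 chromosomes of mouse build GRCm38 (GENCODE release M21). Acan, which encodes aggrecan, the large proteoglycan that holds water in cartilage, lies at chr7:79053483-79115099 on the plus strand. Hapln1, whose product links aggrecan to hyaluronan, lies at chr13:89539796-89611652 (plus). Comp, a pentameric protein that bridges collagen fibrils, lies at chr8:70373558-70382066 (plus). The matrilins, adaptor proteins of the matrix, are Matn1 at chr4:130944385-130955475 (plus), Matn3 at chr12:8947929-8972028 (plus) and Matn4 at chr2:164389393-164405160 (minus). Cnmd, which encodes chondromodulin, an inhibitor of vessel growth in cartilage, lies at chr14:79637690-79662170 (minus). Sox9 lies at chr11:112782224-112787760 (plus), Sox5 at chr6:143828425-144781977 (minus) and Sox6 at chr7:115470872-116038796 (minus). Sox5 and Sox6 are by far the longest, with 939 kb and 553 kb of introns, against 5.54 to 66.0 kb in the 7 matrix genes and less in Sox9.

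Upstream sequence is shown for the members that part from each other in the results: Matn1 and Matn4, which ran in opposite directions among Col2a1-high cells, and Sox6, which was also high in erythroid-like cells. The windows of RefSeq (GRCm38.p6) were searched on both strands for AACAAT, a core bound by SOX5 and SOX6, and for ACAAAG, a core shared by SOX and other HMG factors. RefSeq windows were matched for 8 of the 10 members, and Comp and Sox9 were not among them. At least 1 of both motifs was present in 24.0% of the 32851 upstream windows of 250 bases (AACAAT in 9.42%, ACAAAG in 16.5%). Sox6 was the 1 member with a match, in 5 of its 6 windows. Lower case letters below are 5′ to 3′ on the strand of the gene, and capitals mark the match, which begins 113 bases before the RefSeq start and 61 bases before the end of the printed stretch. The last 52 bases of the Sox6 window lie within the annotated gene and are left out. The 3 stretches are Matn1 at chr4:130944135-130944384 (plus), Matn4 at chr2:164405161-164405410 (minus) and Sox6 at chr7:116038797-116038994 (minus).
Matn1: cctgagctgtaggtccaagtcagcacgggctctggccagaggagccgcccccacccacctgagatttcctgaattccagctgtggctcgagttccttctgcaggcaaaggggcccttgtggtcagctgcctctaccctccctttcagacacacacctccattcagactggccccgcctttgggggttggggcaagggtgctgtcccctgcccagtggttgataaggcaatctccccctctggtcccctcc
Matn4: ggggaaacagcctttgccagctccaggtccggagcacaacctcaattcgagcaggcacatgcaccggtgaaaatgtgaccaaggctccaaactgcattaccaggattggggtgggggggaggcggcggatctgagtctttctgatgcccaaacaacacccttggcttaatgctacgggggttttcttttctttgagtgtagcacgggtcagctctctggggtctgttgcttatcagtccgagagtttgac
Sox6: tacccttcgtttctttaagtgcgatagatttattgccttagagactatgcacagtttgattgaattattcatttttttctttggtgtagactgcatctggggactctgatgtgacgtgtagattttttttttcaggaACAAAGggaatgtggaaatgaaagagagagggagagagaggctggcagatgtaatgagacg
A match is a run of letters and not a shown binding site.

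All 10 members were higher in Col2a1-high cells than in the remaining cells of the same library on average, from 1.20 (Sox6) to 6.26 (Matn1) on the log2 scale. The difference was called (edgeR, adjusted p under 0.05, library as a block) for 9 of the 10, where 60.9% of all tested genes were called in either direction. The median of the members was 4.29, against -0.06 over all tested genes. The cells had been chosen by their share of Col2a1 and by falling outside the OB rule (Col1a1, Runx2, Sp7 and Ibsp), and no member was used in the choice.

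Among the matrix genes, Matn1 stood at 3025 CPM in S1, 5307 in S2, 4359 in S3 and 5042 in S4, and at 8805, 8121, 7904 and 8616 in S5 to S8, all in Col2a1-high cells. In the remaining cells it ran from 6.80 to 393 CPM. No library of Col2a1-high cells overlapped any library of the remaining cells, and the difference was 6.26 ± 0.58 (SE; edgeR adjusted p = 6.88e-06). Matn3 followed with 5.25 ± 0.65 (423 to 1308 CPM against 1.62 to 137). Acan (1831 to 3005 CPM), Hapln1 (1078 to 2341), Comp (1436 to 2089) and Cnmd (2779 to 3971) differed by 4.26 to 4.57 from the remaining cells, each with an SE between 0.49 and 0.66.

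Matn4 did not follow the other matrilins. Its level in Col2a1-high cells was even over the libraries, with 641, 827, 638, 775, 619, 758, 652 and 866 CPM in S1 to S8. In the remaining cells it was 41.6 and 27.7 CPM in S1 and S2, 332 and 326 in S3 and S4, and 576, 811, 702 and 1116 in S5 to S8. The groups thus overlapped: in S6, S7 and S8 the remaining cells were the higher ones. The difference, 1.37 ± 0.56, missed the threshold (edgeR adjusted p = 0.0541), and it lay between 0.23 and 2.82 over the 17 alternatives, past the threshold in some of them.

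The SOX genes were higher in Col2a1-high cells by smaller amounts. Sox9 stood at 531 to 680 CPM there against 6.58 to 280 CPM in the remaining cells, a difference of 3.23 ± 0.56 (edgeR adjusted p = 0.000586). Sox5 differed by 2.63 ± 0.50 and Sox6 by 1.20 ± 0.20 (edgeR adjusted p = 0.00106 and 0.00041). Within every library the level of Sox9 and of Sox5 in Col2a1-high cells was the higher one, and so was that of Sox6.

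**Figure D1:**
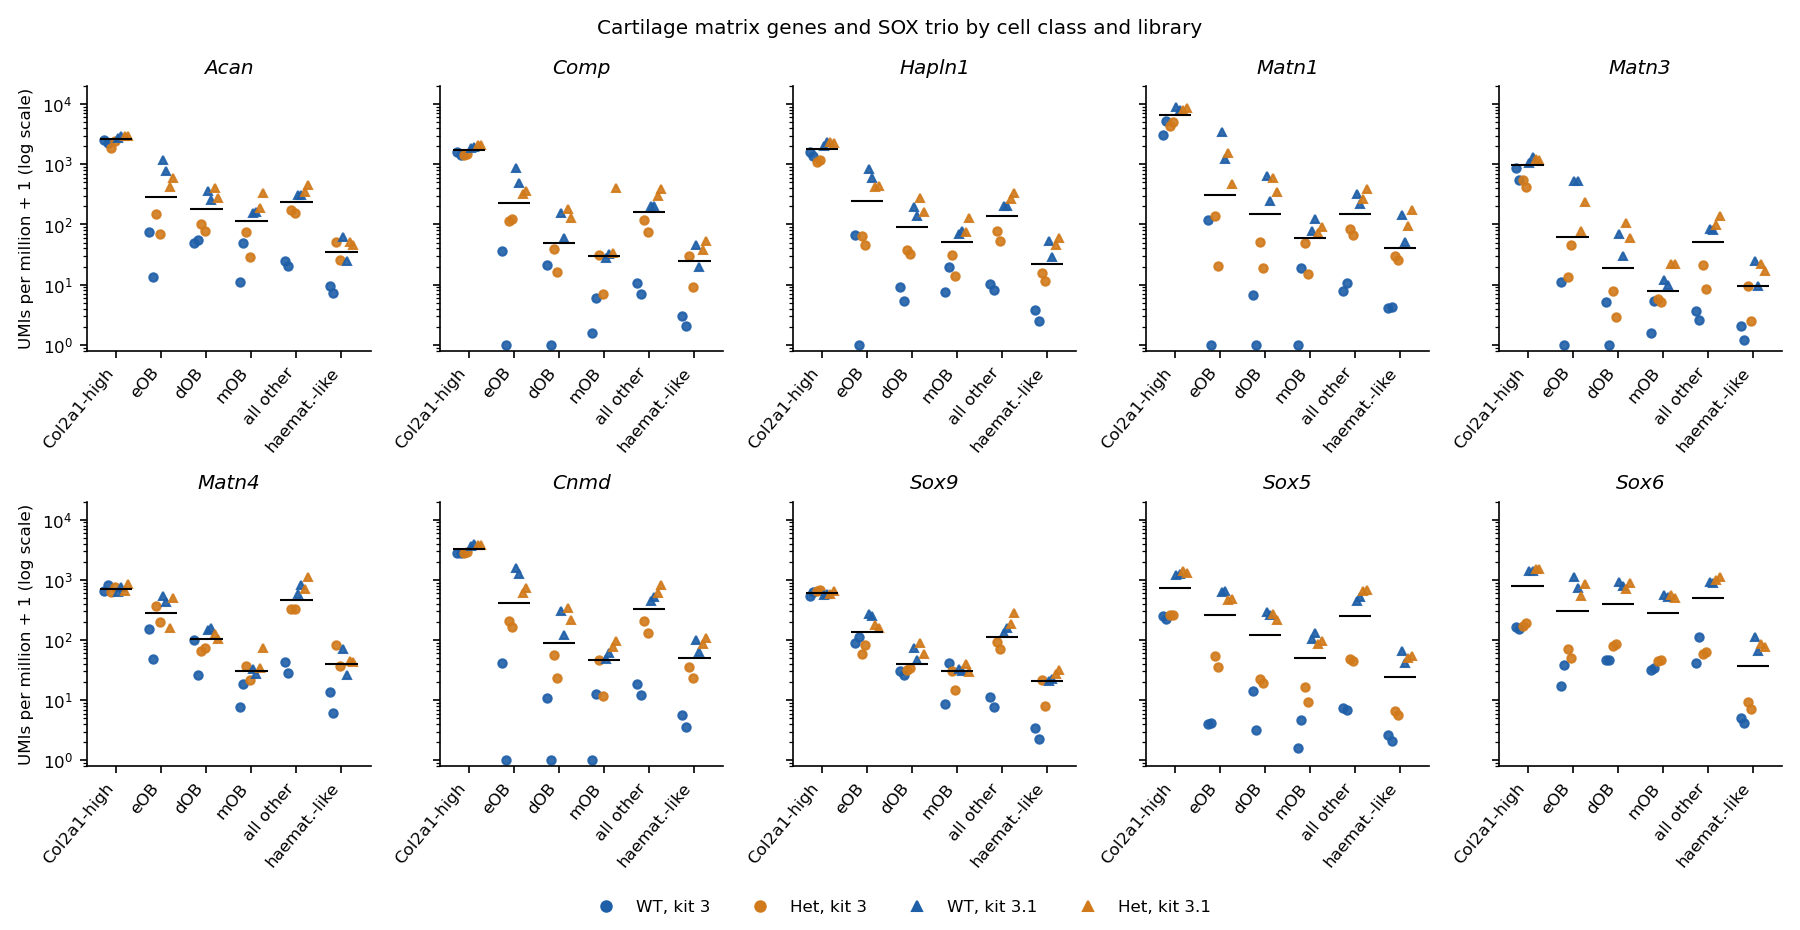
Levels of the 10 members by cell class in CPM plus 1 (log axis), 1 panel per gene; each point is a library (blue WT, orange Het, circle kit 3, triangle kit 3.1) and each bar is the median of the 8 libraries. All 10 genes have their highest median in Col2a1-high cells, and Matn4 is higher among all other cells than in Col2a1-high cells in S6, S7 and S8.

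The other genes of cartilage were counted from lists chosen with results of these data known, so they are no independent evidence. Of 7 cartilage collagen genes, 7 were called higher in Col2a1-high cells (median 4.43), led by Col2a1, which defined the cells, and Col9a3 (5.04 ± 0.60). Of 13 tested genes of other cartilage matrix proteins, 9 were higher and 1 was lower (median 2.45): Ucma rose most (6.12), and Vcan, a proteoglycan of looser matrix, was lower (-2.65). Of 9 genes of proteoglycan synthesis, 8 were higher (median 2.56), with Chst11 (2.97) and Csgalnact1 (3.004), enzymes that start and sulfate chondroitin chains, in front. Of 13 regulators, 9 were higher and none lower (median 1.01), with Foxa2 (4.67) and Foxa3 (3.93) in front. Of 5 tested hypertrophic genes, Ihh, a signal of prehypertrophic chondrocytes, was higher (2.79), while Mmp13 (-3.30), Mef2c (-2.80) and Ibsp (-1.39), the last named here after its value was seen, were lower. Of 8 cell cycle genes 1 was lower, Mki67 (-0.76).

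The genes whose levels ran most like those of the members over 40 sums (5 cell classes in 8 libraries, 8476 genes compared) were Col9a2, with a mean Pearson r of 0.915 over the 10 members, Mia (0.913), Ucma, Col9a3 and Col9a1. Fam180a, 3110079O15Rik, Crispld1, Xylt1 and Susd5 came next, with 0.888 to 0.901. The sums share libraries, depth and composition, so r describes a pattern only. By this measure the members were split: the r among Acan, Comp, Matn1, Matn3, Hapln1 and Cnmd was 0.94 to 0.98, whereas Matn4 reached 0.79 to 0.88 with these and Sox6 0.67 to 0.73. The nearest gene to Matn4 was Mgp (0.950), to Sox9 Sdc4 (0.965), to Sox5 Aff3 (0.971) and to Sox6 Kcnq5 (0.970).

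All 10 members were called lower in eOBs than in Col2a1-high cells (39.5% of all tested genes were called), by 1.69 (Sox6) to 4.50 (Matn1) on the log2 scale. Matn4 (1.78), Sox9 (2.39) and Sox5 (2.41) differed less than Comp, Matn3, Hapln1, Acan and Cnmd, which lay between 3.53 and 3.71. Of the 379 eOBs, 66 (17.4%) also had Col2a1 over 1% of their UMIs, against 92 of 1217 dOBs (7.56%) and 13 of 1075 mOBs (1.21%). The eOBs of WT S5 and S6 held most of them, 39 of 95 and 14 of 50 cells.

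From eOBs to mOBs, 9 of the 10 members were lower in the mOBs (28.5% of all tested genes were called). Matn3 differed by 3.56 ± 0.59, Cnmd by 3.04 ± 0.49, Matn4 by 2.82 ± 0.28, Matn1 by 2.74 ± 0.68 and Comp by 2.67 ± 0.59, eOB over mOB. Sox9 (2.01 ± 0.25) and Sox5 (1.88 ± 0.17) were higher in eOBs as well, as were Hapln1 (1.87 ± 0.40) and Acan (1.07 ± 0.36). Sox6 was the exception at -0.12 ± 0.19 (edgeR adjusted p = 0.707).

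For the matrix genes other than Matn4, much of this difference lay in the eOBs that also carried Col2a1. Leaving OBs out by Col2a1 took 66 of 379 eOBs but 13 of 1075 mOBs. By construction it thus lowers in the eOBs the transcripts that go with Col2a1. With the 171 OBs over 1% Col2a1 left out, the call remained for Matn4 (2.62 ± 0.25), Cnmd (1.54), Comp (1.19), Sox9 (1.15) and Sox5 (1.09), and was lost for Matn1 (0.41), Matn3 (0.59) and Hapln1 (-0.20), with 29% of all genes called. Acan turned around and was then called higher in mOBs (-0.74 ± 0.24, edgeR adjusted p = 0.0328). In this setting 5 members were higher in eOBs and 1 in mOBs. Col2a1 itself was at 0.48 ± 0.22 then, which was not called (edgeR adjusted p = 0.125).

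Sox9 in eOBs was 88.7 CPM in S1, 112 in S2, 58.0 in S3 and 83.3 in S4, and 266, 250, 173 and 156 in S5 to S8. In mOBs it was 7.80, 41.2, 30.0, 13.7, 31.7, 29.5, 39.0 and 28.6 CPM, lower than the eOBs in 8 of 8 libraries. Matn4 in eOBs was 153, 46.7, 368 and 196 CPM in S1 to S4 and 541, 426, 157 and 493 in S5 to S8. The mOBs had 6.60 to 72.2 CPM of Matn4, and each library was higher in its eOBs. Matn1 in eOBs spread from 0 of 321048 UMIs in S2 (which allows up to 9.34 CPM) to 3442 CPM in S5, and in S1 a single cell held 152 of the 154 Matn1 UMIs. In the S1 eOBs 1 cell also held 83 of 85 Hapln1, all 52 Cnmd, 11 of 13 Matn3, 36 of 45 Comp and 75 of 96 Acan UMIs, while for Matn4 and Sox9 the highest cell held 26 of 198 and 15 of 115.

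Free RNA of a suspension gives UMIs in cells that do not make a transcript, so the levels were set against haematopoietic-like cells, which should not make cartilage matrix. This reference itself held chondrocyte markers in most of its kit 3.1 cells. In eOBs all 10 members were above the haematopoietic-like cells (2.74 to 3.53, 59.4% of genes called), and without the OBs over 1% Col2a1 the call held for 6 (56.1% of genes called). These 6 were Sox6 (2.52), Sox9 (2.48), Matn4 (2.41), Sox5 (2.08), Comp (1.04) and Acan (1.02), while Matn1 stood at -0.02 ± 0.32 and Col2a1 at 0.02 ± 0.34. In mOBs 5 members were called above haematopoietic-like cells (68.5% of genes called): Sox6 (3.05 ± 0.14), Acan (1.93), Hapln1 (1.40), Sox9 (1.34) and Sox5 (1.22). Matn4 (-0.02), Cnmd (0.01), Matn1 (0.26), Matn3 (0.34) and Comp (0.72) were not called in mOBs. This depended on the reference. Against haematopoietic-like cells with fewer than 3 chondrocyte markers, a choice that lowers their cartilage transcripts by construction, Matn4 stood at 1.48. More members were called then, as given with the processing below.

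Sox6 in mOBs was 31.2, 33.3, 44.0 and 44.8 CPM in S1 to S4 and 567, 509, 555 and 507 in S5 to S8. Haematopoietic-like cells held 3.25 to 8.39 CPM with kit 3 and 64.2 to 110 CPM with kit 3.1, below the mOBs in 8 of 8 libraries. After each cell was thinned to 2000 UMIs, 61.3% to 68.3% of the kit 3.1 mOBs had a Sox6 UMI, against 6.3% to 10.4% of haematopoietic-like cells. With kit 3 the shares were 5.5% to 11.4% and 0% to 1.0%. The dOBs had 44.9 to 85.7 CPM with kit 3 and 695 to 931 with kit 3.1.

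Free RNA from 1 source keeps its genes in a fixed ratio, so the members were also set against Col2a1 within each class and compared with the same ratio in Col2a1-high cells. Since those cells were chosen by Col2a1, every ratio outside them is raised by construction, and only the contrast between members within a class is read here. In mOBs the ratio of Sox6 to Col2a1 was 41.9-fold that in Col2a1-high cells (5.39 ± 1.81 log2, SD over 8 libraries), and that of Sox9 was 6.02-fold, of Sox5 5.61-fold, of Matn4 5.24-fold, of Acan 4.53-fold, of Hapln1 3.09-fold, of Comp 1.51-fold and of Matn3 1.19-fold. Cnmd (0.931-fold) and Matn1 (0.638-fold) were near or below 1. In haematopoietic-like cells the ratio was 0.969-fold for Matn1 and 1.06-fold for Matn3, but 7.83-fold for both Sox6 and Matn4, and between 1.44-fold (Comp) and 3.89-fold (Sox5) for the other 6 members. In those cells too, then, not all members kept the ratio of the Col2a1-high cells. The mOB values depended on the setting: without the OBs over 1% Col2a1 they were 82.5-fold for Sox6, 11.4-fold for Sox9, 9.37-fold for Matn4, 9.27-fold for Sox5 and 8.12-fold for Acan, against 1.16-fold for Cnmd and 0.846-fold for Matn1. For Sox6 in mOBs the mean was 6.35 with kit 3 and 4.42 with kit 3.1 (log2, all mOBs). In the same order it was 3.51 and 1.67 for Sox9, 3.16 and 1.62 for Matn4, and 0.97 and -0.47 for Matn3. Comp (0.43 and 0.76) and Cnmd (-0.25 and 0.05) were the members with the higher mean in kit 3.1. The mOBs held 14, 218, 499 and 310 Col2a1 UMIs in S1 to S4, and 0.5 UMI was added to each sum.

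The remaining cells were divided further by marker genes of other cell types. These gave 2146 erythroid-like, 2999 endothelial-like, 1741 mural-like, 1220 fibroblast-like and 122 glial-like cells, and left 12827 cells with Col2a1 at or under 1% and fewer than 3 markers of each of these lists (unclassified cells). The unclassified cells were not free of cartilage transcripts: at least 3 chondrocyte markers were detected in 11.3% to 46.2% of them in the kit 3 libraries and in 82.7% to 96.3% in the kit 3.1 libraries. These comparisons were chosen after the levels were seen.

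Sox6, which has a known role in the maturation of red blood cells, stood at 204, 233, 215 and 287 CPM in erythroid-like cells of S1 to S4, above the 154 to 193 CPM of Col2a1-high cells in the same libraries. In S5 and S6 it was 1084 and 839 CPM, below the 1408 and 1389 CPM of Col2a1-high cells. S7 and S8 had fewer than 10 erythroid-like cells and were left out of the fit. Against haematopoietic-like cells the difference was 5.40 ± 0.38 (edgeR adjusted p = 8.93e-09), where 59.3% of all genes and 3 of the 10 members were called. Matn3 (1.11) and Cnmd (0.69) were the other members called, from sums of 0.537 to 33.1 and 1.52 to 89.3 CPM, and only Sox6 was called both without S2 and without S3. The other 7 members lay between 0.24 and 0.62 and were not called. Thinned to 2000 UMIs, 39.1% to 53.8% of erythroid-like cells had a Sox6 UMI with kit 3, against 0% to 1.0% of haematopoietic-like cells.

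Matn4 stood at 334, 296, 538 and 598 CPM in the unclassified cells of S1 to S4 and at 855, 1296, 1221 and 1614 in those of S5 to S8. In each of the kit 3.1 libraries this was above the Col2a1-high cells of the same library, and in each of the kit 3 libraries it was below. The fit did not call Matn4 between unclassified and Col2a1-high cells (-0.18 ± 0.26, edgeR adjusted p = 0.581), whereas the other 9 members were called lower in unclassified cells, from -0.68 (Sox6) to -5.31 (Matn1), with 55.3% of all genes called. All 10 were above the haematopoietic-like cells, where 74.3% of all genes were called, by 2.34 (Matn1) to 4.53 (Matn4). The level of Matn4 depended on the unclassified cells with chondrocyte markers. In those with fewer than 3 of them Matn4 was called lower than in Col2a1-high cells, at -2.28 ± 0.16, as were all 10 members (49.7% of genes called), in cells that this filter selects for few cartilage transcripts. Against haematopoietic-like cells, 6 members were then called above (67.6% of genes called): Sox6 (3.72), Sox5 (2.64), Matn4 (2.35), Acan (2.23), Hapln1 (1.71) and Sox9 (1.47). In all unclassified cells Matn4 relative to Col2a1 was 24.3-fold the ratio of Col2a1-high cells, with 4.60 ± 0.25 (log2, SD over 8 libraries). The choice of both classes by Col2a1 raises this ratio by construction, so only the contrast between members is read. In the same cells the ratio was 17.1-fold for Sox6, 9.14-fold for Sox5, 6.65-fold for Sox9, 3.19-fold for Acan and 0.685-fold for Matn1. The members not named lay between Matn1 and Acan. Matn4 was thus the highest member, with Sox6 next to it.

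Among the vessel classes, Sox5 was higher in mural-like cells, which surround vessels, than in endothelial-like cells. In mural-like cells it was 24.7, 46.7, 33.7 and 45.9 CPM in S1 to S4 and 593, 642, 824 and 823 in S5 to S8. Endothelial-like cells had 1.56 to 7.38 CPM with kit 3 and 42.6 to 89.1 with kit 3.1. Both Col2a1-high cells (226 to 1399 CPM) and unclassified cells (38.5 to 954 CPM) were above the mural-like cells of the same library in 8 of 8 libraries. At least 3 chondrocyte markers were found in 2.01% to 24.9% of mural-like cells with kit 3 and in 69.8% to 95.5% with kit 3.1, and their part in these levels was not tested. Mural-like cells were higher by 3.47 ± 0.20 for Sox5, 2.68 ± 0.23 for Matn4 and 2.54 ± 0.23 for Sox6, and 9 of the 10 members were called, with 61.7% of all genes called. Acan (2.03), Sox9 (1.93), Matn3 (1.47), Comp (1.30), Hapln1 (1.24) and Cnmd (1.14) were the others, and Matn1 (0.52 ± 0.43) was the member not called.

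**Figure D2:**
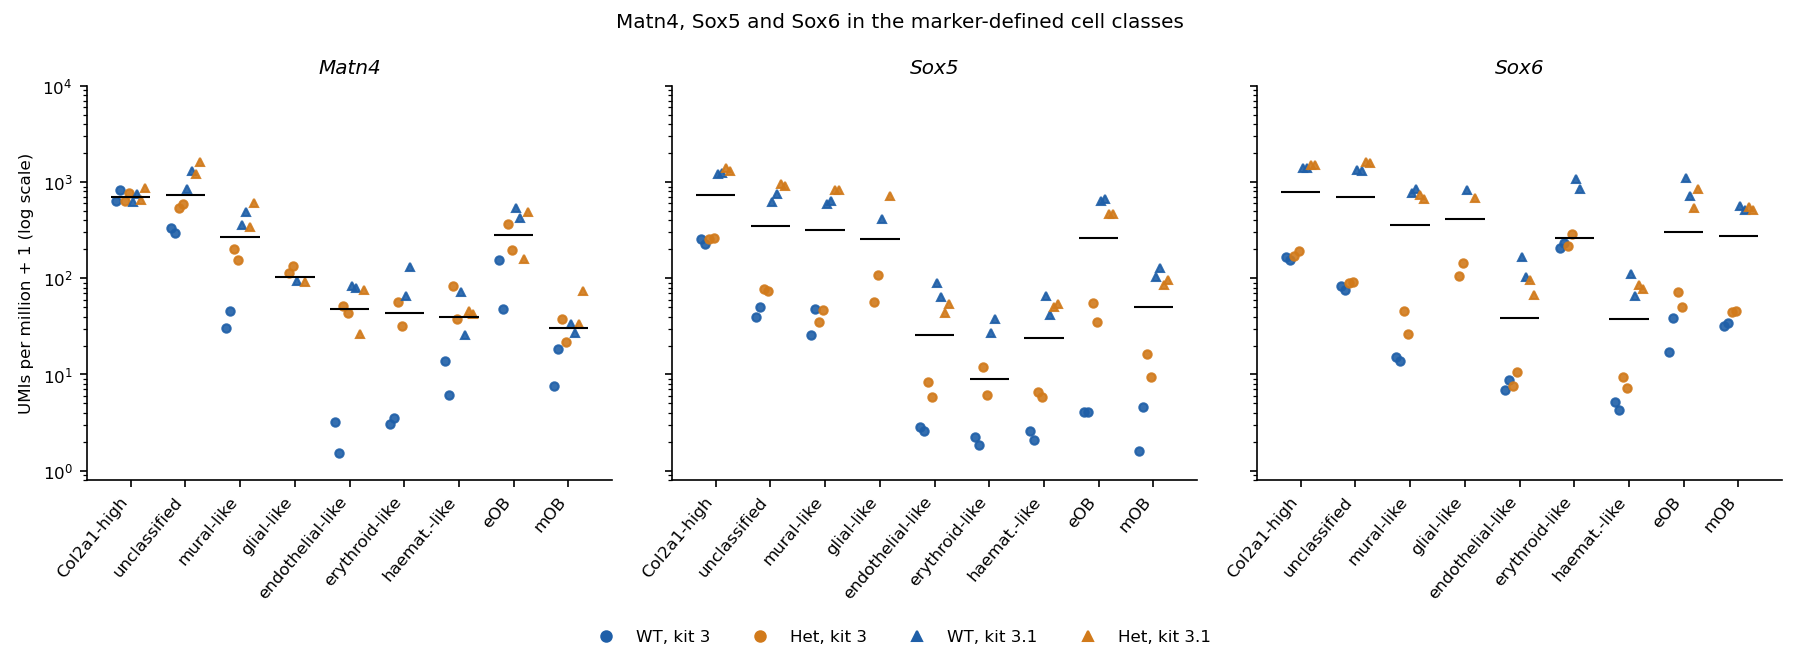
Levels of Matn4, Sox5 and Sox6 in 9 cell classes, in CPM plus 1 (log axis); each point is a library with at least 10 cells of the class (blue WT, orange Het, circle kit 3, triangle kit 3.1). Matn4 spans 296 to 1614 CPM in unclassified cells and Sox6 204 to 1084 in erythroid-like cells, Sox5 in mural-like cells (24.7 to 824) lies under Col2a1-high cells (226 to 1399) of the same library, and the kit 3.1 points of Sox5 and Sox6 lie above the kit 3 points.

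Col2a1-high cells were not uniform, and Matn4 and Matn1 ran in opposite directions within them. The cells were divided by Col2a1 into 4815 cells at 1% to 2%, 4809 at 2% to 4% and 5746 over 4% of UMIs, a division chosen after the levels were seen. Matn1 was 1463, 2462, 2025, 2293, 2683, 2183, 1705 and 1781 CPM at 1% to 2% in S1 to S8. Over 4% it was 6136, 8567, 7999, 7649, 12915, 11624, 11746 and 12802 CPM, so the groups did not overlap. The mean difference within a library was 2.24 ± 0.42 (log2, SD, n = 8), or 4.71-fold, with the same sign in 8 of 8 libraries (two-sided exact sign-flip test over libraries, p = 0.00781, the smallest possible).

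Matn4 fell as Col2a1 rose. It was 826, 1344, 834, 1146, 926, 1433, 1115 and 1589 CPM at 1% to 2% and 464, 348, 326, 410, 459, 504, 444 and 610 CPM over 4%. The difference was -1.35 ± 0.33 (2.56-fold lower), in the same direction in 8 of 8 libraries (exact sign-flip test, p = 0.00781). Just outside the limit, in remaining cells with Col2a1 between 0.5% and 1%, Matn4 stood at 1163 to 1711 CPM.

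Of the other members, Matn3 (1.44 ± 0.34), Acan (1.33 ± 0.37), Hapln1 (1.21 ± 0.32), Cnmd (0.87 ± 0.10), Comp (0.79 ± 0.19) and Sox9 (0.42 ± 0.24) were all higher over 4% Col2a1 in 8 of 8 libraries, each with the same exact p. Sox5 (0.09 ± 0.18, exact p = 0.234) and Sox6 (-0.03 ± 0.12, exact p = 0.492) did not pass. With every cell thinned to 2000 UMIs Sox6 was lower in 8 of 8 libraries (-0.15, exact p = 0.00781), and the direction and p of the 8 members that passed stayed the same. The p-values of these 10 tests are not adjusted. Only the members were put to this test, so the share of all genes that would pass is not known. The cells at 1% to 2% of S5 had a median of 799 UMIs, and leaving out any 1 library moved Matn1 to between 2.15 and 2.31 and Matn4 to between -1.43 and -1.27.

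**Figure D3:**
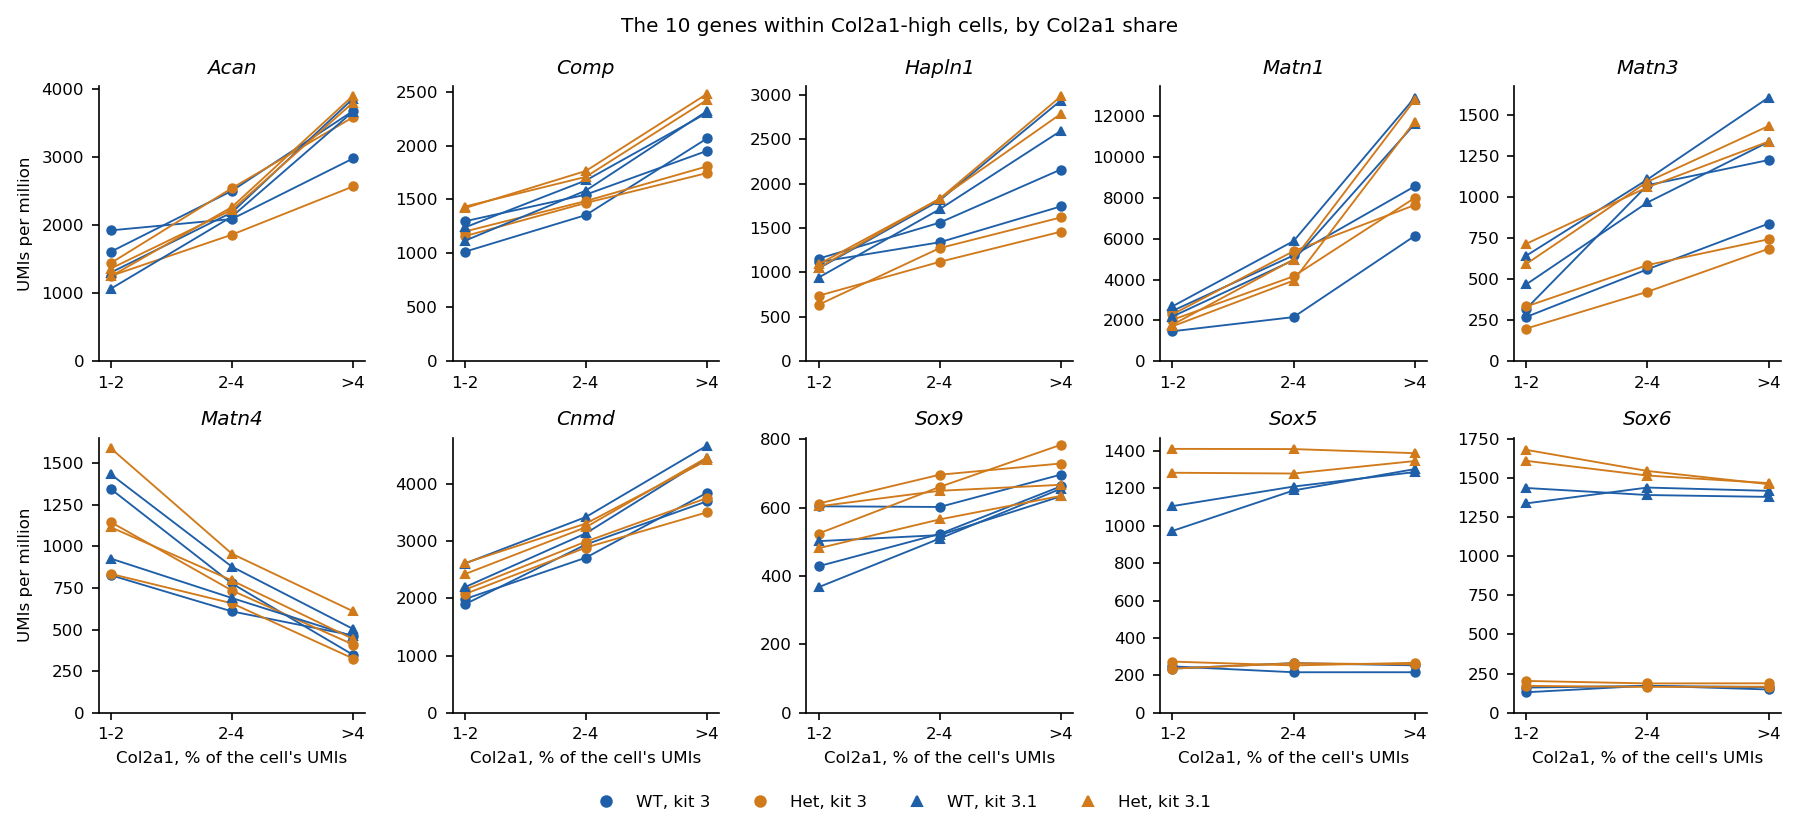
Levels of the members (CPM, linear axis) in Col2a1-high cells with Col2a1 at 1% to 2%, 2% to 4% and over 4% of UMIs, 1 line per library (blue WT, orange Het, circle kit 3, triangle kit 3.1). Matn1 climbs 4.71-fold and Matn4 falls 2.56-fold from the first division to the last in all 8 libraries, and Sox5 and Sox6 stay nearly level.

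Cells in division showed a further contrast. In 974 Col2a1-high cells with at least 3 of 8 cell cycle genes detected, Matn3 was higher than in the other 14396 by 0.61 ± 0.32 (log2, SD), Hapln1 by 0.33 ± 0.16 and Acan by 0.24 ± 0.14, each in 8 of 8 libraries (exact sign-flip test, p = 0.00781). Matn4 was lower in 8 of 8 (-0.44 ± 0.16, exact p = 0.00781). Matn1 differed by -0.09 ± 0.12 (exact p = 0.0859), and after thinning by -0.16 ± 0.14 (exact p = 0.0234). Small falls of Comp (-0.27), Sox9 (-0.17), Sox5 (-0.15), Cnmd (-0.14) and Sox6 (-0.13) had exact p-values from 0.00781 to 0.0391, and after thinning those of Comp and Sox6 were 0.0859 and 0.344. A library held 10 to 237 such cells, and the deeper a cell, the more cell cycle genes it can show. Here too only the members were tested, and the share of all genes that would pass is not known.

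No member differed between Het and WT in Col2a1-high cells at the adjusted threshold. The SOX genes were all slightly higher in Het libraries, and the matrix genes had no common direction. The fit (edgeR with kit version as a term) called 15 of 14600 genes (0.103%) and none of the members. At an unadjusted p under 0.05 it gave 3 members and 1024 genes, and DESeq2 called 0 members and 52 genes.

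Sox9 was 531 and 629 CPM in WT and 647 and 680 CPM in Het with kit 3, and 556 and 578 CPM in WT and 590 and 652 CPM in Het with kit 3.1. Sox5 was 253 and 226 in WT against 255 and 263 CPM in Het with kit 3, and 1206 and 1237 against 1399 and 1315 CPM with kit 3.1. Sox6 was 166 and 154 against 168 and 193 CPM, and 1408 and 1389 against 1518 and 1502 CPM. For each of the SOX genes both Het libraries thus lay above both WT libraries within each kit, as they did for 789 of 14610 genes (5.4%), while both lay below for 3.57% of genes and for no member. The differences were 0.17 ± 0.08 for Sox9, 0.15 ± 0.06 for Sox5 and 0.15 ± 0.07 for Sox6 (log2 ± SE), with unadjusted edgeR p-values of 0.0441, 0.0397 and 0.0464 and adjusted ones of 0.689, 0.676 and 0.700. Their direction was the same under all 21 alternatives.

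Acan (-0.03 ± 0.09), Comp (0.05 ± 0.06), Matn1 (0.08 ± 0.14), Matn4 (0.05 ± 0.12) and Cnmd (0.02 ± 0.06) were near 0. Hapln1 (-0.15 ± 0.10) and Matn3 (-0.26 ± 0.15) were lower in Het and not called. The 6 lists of other cartilage genes held no called gene. The genotype by kit term was called for none of the members and for 0.0597% of genes, and Hapln1 had the smallest unadjusted p (0.45 higher with kit 3.1, edgeR adjusted p = 0.415).

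In OBs no member was called between Het and WT in eOBs (0% of all genes called), dOBs (0.00981%) or mOBs (0.518%). Unadjusted edgeR p-values under 0.05 were found for 1 member of eOBs and 338 genes, 1 of dOBs and 751 genes and 3 of mOBs and 1104 genes, and DESeq2 called 0 members in each of them. The member of eOBs was Sox9, at -0.65 ± 0.18 in Het minus WT, far from the adjusted threshold. The eOBs of the 2 kits went opposite ways: within kit 3, from a fit to all 8 libraries with a genotype term for each kit, the median of the members was 1.37 higher in Het, 9 of 10 were positive, and Sox5 (3.77 ± 0.46) and Cnmd (2.74 ± 0.56) were called (1.11% of genes called). Within kit 3.1 the median was -0.92, none was positive and none was called (0% of genes), with an unadjusted edgeR p under 0.05 for 6 members and 536 genes. The genotype by kit term was called in eOBs for Sox5 (-4.32) and Cnmd (-3.93), with 0.567% of genes called. These calls rest on few UMIs. Sox5 had 4 and 1 UMIs in the WT eOBs of kit 3 and 13 and 7 in the Het eOBs. Cnmd had 52 in S1, all in 1 cell, and none in S2, against 50 in S3 and 34 in S4, where 1 cell held 20. In dOBs the members lay between -0.25 (Matn4) and 0.79 (Cnmd), and Hapln1 (0.72) had the unadjusted p under 0.05. No member was called within kit 3 or kit 3.1 in dOBs (0.378% and 0% of genes called) or mOBs (3.46% and 0.0287%), nor by the genotype by kit term (0.151% of genes in dOBs, 0.0861% in mOBs). Those values come from the fit to all 8 libraries, and the 4 kit 3 libraries fitted alone gave 1 called member in dOBs (0.595% of genes called). The genotype by kit term had an unadjusted edgeR p under 0.05 for 4 members and 1035 genes in dOBs and for 1 member and 1107 genes in mOBs. In mOBs Comp was 2.67 ± 0.76, Matn3 0.98 ± 0.31 and Matn4 0.83 ± 0.31 higher in Het (edgeR adjusted p = 0.170, 0.232 and 0.325). Comp in mOBs was 0.600 and 5.06 CPM in WT and 30.0 and 5.95 in Het with kit 3, and 26.8 and 31.8 in WT and 32.2 and 397 in Het with kit 3.1. The value of Het S8 rests on 1 cell, which held 220 of the 264 Comp UMIs (83.3%) of its 42 mOBs.

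Among the remaining cells the differences between genotypes were large and went with the composition of the libraries. The median of the members was 1.57 higher in Het, 9 of 10 had an unadjusted edgeR p under 0.05, and 0 were called, as 0% of all genes were (3823 genes had an unadjusted p under 0.05, and DESeq2 called 9 members and 9.65% of genes). Within kit 3 the same 9 members were 2.37 to 3.33 higher and called, where 46.3% of all genes were called. Within kit 3.1 they were 0.28 to 0.75 higher and none was called (0% of genes). The genotype by kit term was called for 8 members and 20.6% of genes. Sox6 was the member apart, with -0.74 ± 0.47 within kit 3 and 0.20 ± 0.46 within kit 3.1.

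The same libraries differed in the share of remaining cells with at least 3 chondrocyte markers: 1.83% and 1.65% in WT S1 and S2, 32.0% and 17.7% in Het S3 and S4, and 79.2% to 94.7% with kit 3.1. In haematopoietic-like cells the median of the members was 1.04 higher in Het, 5 had an unadjusted edgeR p under 0.05 (2088 genes did), and 0 members and 0% of genes were called. Within kit 3 that median was 2.39 and 8 of the 10 members were called (14.6% of genes called), and within kit 3.1 it was 0.20 with none called (0% of genes). The genotype by kit term in these cells was called for no gene and had an unadjusted edgeR p under 0.05 for 8 members and 2570 genes. The part of these shares in the difference was not tested.

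In unclassified cells 6 of the 10 members were called, all higher in Het, where 1.51% of all genes were called (edgeR, a comparison added after the levels were seen). These were Comp (1.02 ± 0.15), Cnmd (0.89 ± 0.18), Sox9 (0.83 ± 0.14), Hapln1 (0.66 ± 0.10), Sox5 (0.61 ± 0.12) and Acan (0.54 ± 0.10), with adjusted p-values from 0.0159 to 0.0484. Col2a1 rose beside them by 0.77 ± 0.12. Matn1 (0.69 ± 0.26), Matn4 (0.65 ± 0.16), Matn3 (0.44 ± 0.23) and Sox6 (0.28 ± 0.08) were not called. The share of unclassified cells with at least 3 chondrocyte markers was also higher in Het: 11.3% and 12.8% in WT against 46.2% and 31.6% in Het with kit 3, and 82.7% and 84.0% against 95.6% and 96.3% with kit 3.1. Leaving those cells out kept 462 and 382 cells in WT and 710 and 2026 in Het with kit 3, and 552 and 261 in WT but 69 of 1586 and 43 of 1174 in Het with kit 3.1, so the choice itself moved with genotype. In the cells kept 3 members were called, where 1.09% of genes were: Cnmd (1.64 ± 0.27), Matn1 (1.29 ± 0.28) and Hapln1 (0.72 ± 0.14). Comp (0.94), Sox5 (0.55), Sox9 (0.35) and Acan (0.23) were then not called.

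Comp in unclassified cells was 78.7 and 61.6 CPM in WT and 194 and 137 CPM in Het with kit 3, and 284 and 314 against 489 and 540 CPM with kit 3.1. Sox9 was 80.0 and 67.6 against 156 and 128 CPM, and 188 and 244 against 294 and 394 CPM. Both Het libraries were above both WT libraries in each kit for both genes. The share of all genes that lay apart in this way was not counted in unclassified cells. Within kit 3 there were 7 called members (3.07% of genes called) and within kit 3.1 none (0.855% of genes), though all 10 were positive there (median 0.49), and the genotype by kit term was called for no member and 0.651% of genes. Without S1, S2, S5 or S8 the count fell to 1, without S3 or S4 to 2, and without S6 it was 7. With Col2a1-high cells taken from 0.5% Col2a1 on, which removes cells from the unclassified, it was 2 (0.906% of genes called).

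**Figure D4:**
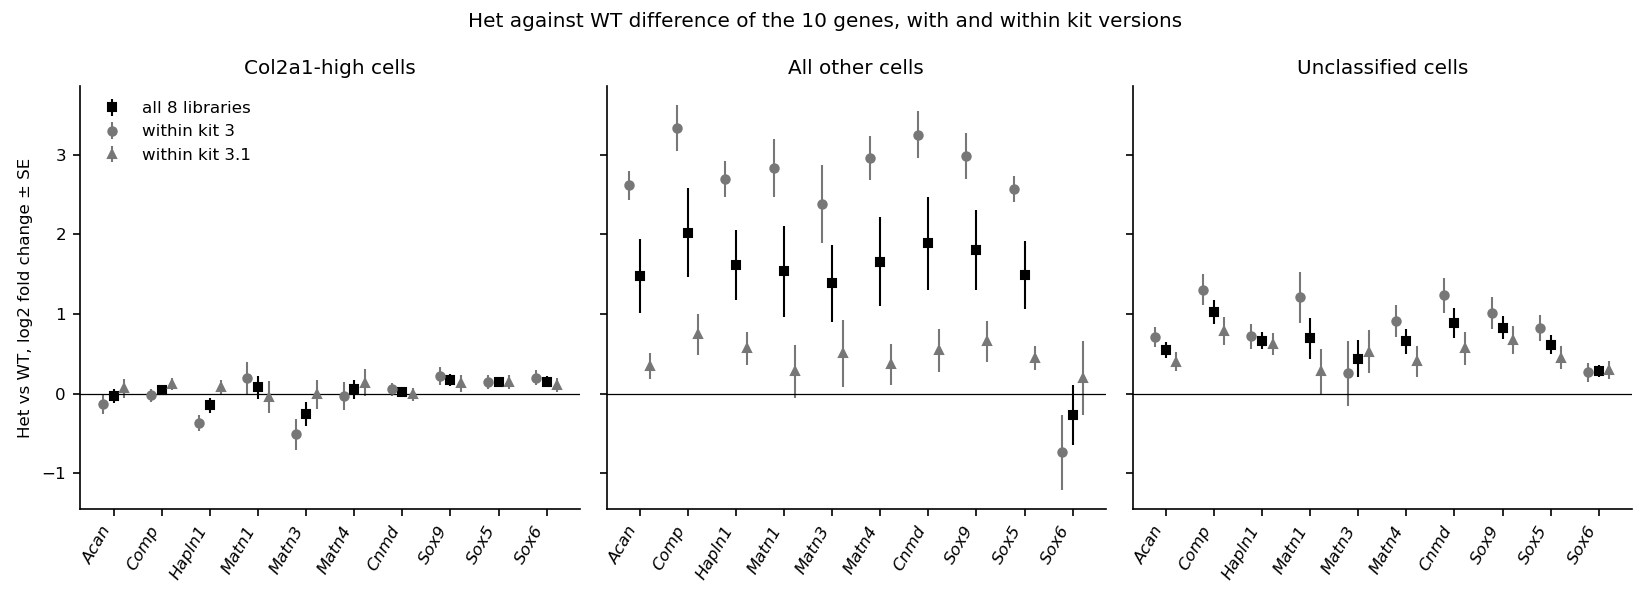
Het minus WT difference of each member (log2, bars are ± 1 SE) in Col2a1-high cells, the remaining cells and unclassified cells, over both kits (squares), within kit 3 (circles) and within kit 3.1 (triangles), all from fits to the 8 libraries. In Col2a1-high cells the 10 estimates from all libraries lie between -0.26 and 0.17, while in the remaining cells the kit 3 estimates reach 3.33 and the kit 3.1 estimates stay at or under 0.75.

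Kit versions also differed in Col2a1-high cells, by the largest amounts for Sox6 and Sox5 among the members. Sox6 was 8.01-fold and Sox5 4.84-fold higher with kit 3.1, and the 4 libraries of each kit did not overlap (Sox6 154 to 193 CPM against 1389 to 1518, Sox5 226 to 263 CPM against 1206 to 1399). By the size of this rise Sox6 had rank 677 and Sox5 rank 1058 of 14569 genes. The share of all genes without overlap between kits was not counted. Of the 10 members 8 were called, all higher with kit 3.1, where 59.1% of all genes were called. Matn3 (0.92), Matn1 (0.82), Hapln1 (0.69), Comp (0.33), Cnmd (0.33) and Acan (0.25) moved less, and Sox9 (-0.16) and Matn4 (-0.09) were not called. Every comparison of genotypes above that used both kits had kit version as a term, and every comparison of cell classes was made within libraries.

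The kit difference went with the length of introns over all genes. The median difference was -0.38 (log2) in 4950 genes with under 10 kb of introns, 0.04 in 5802 genes with 10 to 50 kb, 0.72 in 2995 genes with 50 to 200 kb and 2.07 in 822 genes with more than 200 kb. More intron sequence than Sox5 was found in 0.378% of genes, and more than Sox6 in 1.01%. Both lie above the median of their bin, and Sox9, with the least intron sequence of the members, had the lowest value of the 10. The counting software changed with the kit as well, so kit, software and experiment cannot be told apart, and the part of intron length was not tested.

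**Figure D5:**
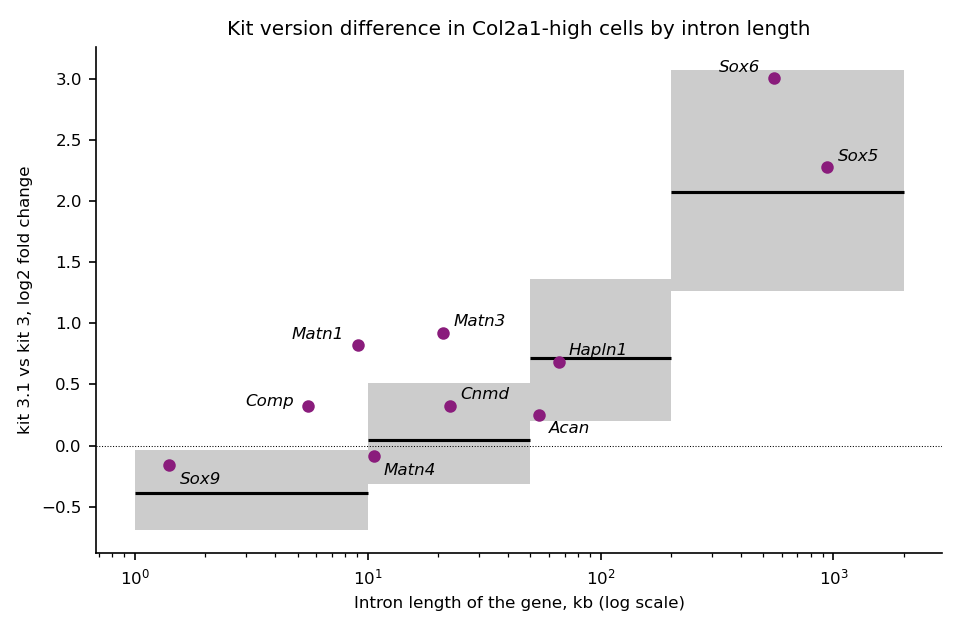
Difference between kit 3.1 and kit 3 in Col2a1-high cells (log2) against the summed intron length of the gene in kb (log axis); points are the members, the lines are medians of all genes in 4 bins of intron length and the grey bands run from the 25th to the 75th percentile. The medians climb from -0.38 to 2.07, and Sox5 (939 kb, 2.28) and Sox6 (553 kb, 8.01-fold) lie at the upper right.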

How the data were processed

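Parietal bone cells of 8 libraries (4 WT, 4 Het; 2 of each per kit version) were measured by 10x Genomics 3' sequencing of polyA RNA. The deposited matrices hold unnormalized UMI counts for each gene in each cell. Per the file headers and the submitters' processing notes, the authors used Cell Ranger 5.0.0 (kit 3) or 6.0.1 (kit 3.1) with build mm10. Whether intronic reads were counted is not given in the sources used here. Total counts per library ran from 30480239 to 85162035 UMIs.

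Cells with at least 500 genes and under 10% mitochondrial UMIs were kept, and doublets were not removed. OBs had at least 10 Col1a1 UMIs and at least 2 UMIs in at least 2 of Runx2, Sp7 and Ibsp, a rule rebuilt from the study's description, so cell numbers can differ from the study's. UMI counts were summed per library and class, leaving out libraries with fewer than 10 cells. Sums were tested with edgeR 4.0.16 (limma 3.58.1, R 4.3.3: filterByExpr, TMM, glmQLFit, glmQLFTest), with kit version as a term between genotypes and library as a block between classes. Values within a kit come from 1 fit to all 8 libraries with a genotype term per kit, and values from kit 3 or kit 3.1 alone from fits to those 4 libraries, with their own filter and spread. P-values were adjusted by Benjamini-Hochberg over all genes tested, and a gene was called at an adjusted p under 0.05. DESeq2 1.42.0 was an alternative. Per-library differences were tested by a two-sided exact sign-flip test. Python 3.11.15, numpy 2.4.6, pandas 2.3.3 and scipy 1.17.1 were used, and the fits were tested on simulated data.

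All 10 members were to be named in every comparison; where the text names some, the others stand as a count or range. Genes of the other lists are named by the 2 largest called changes each way per list, and 10 genes by their likeness to the members. The members, lists and rules were chosen with earlier results of these data known. Other cell filters, normalizations, tools, depths, Col2a1 limits and omitted libraries were tried.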

Additional observations from a re-analysis of the deposited data

Results flagged for a closer look

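Comp in the mOBs of Het S8 stood at 397 CPM, while the other 3 Het libraries had 5.95 to 32.2 CPM. The gap to the nearest library was too large a share of the group's range for a group of 4. It was 1 of 100 such groups looked at, and chance marks about 1 in 20.

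For 8 members the difference between Het and WT in the remaining cells was not the same in both kits by the genotype by kit term (edgeR, adjusted over all genes). The term was -2.71 for Cnmd, -2.59 for Comp and Matn4, -2.55 for Matn1, -2.33 for Sox9, -2.26 for Acan and -2.12 for Sox5 and Hapln1 (log2, kit 3.1 minus kit 3). Matn3 (-1.87) and Sox6 (0.93) were not called. Of all 16923 genes tested there, 3490 were called. In eOBs the same term was called for 2 members, Sox5 (-4.32) and Cnmd (-3.93), and for 53 of 9351 genes. The kit 3 sums behind it held 1 to 13 UMIs of Sox5, and the 52 Cnmd UMIs of S1 lay in 1 cell.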

How the results depend on the processing

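Of the counts of called members recomputed under an alternative, 260 stayed within 1.5 times of the reported count and 24 did not. Of the values of single members, 1375 kept direction and call, 65 lost and 27 gained the call, and 53 changed sign. The shares in parentheses are of all genes tested. Fits to 1 kit alone used its 4 libraries only, so their counts differ from those within a kit. Called members between Het and WT were 1 with no low-count filter (0.795%) and 1 in kit 3 alone (5.81%) for eOBs, 4 (1.39%) and 1 (0.595%) for dOBs, and 5 with no filter (2.91%) for mOBs. In the remaining cells they were 9 by DESeq2 (9.65%) and 9 in kit 3 alone (31.4%), and in unclassified cells 2 with Col2a1-high cells from 0.5% on (0.906%). For eOBs against mOBs kit 3 alone gave 4 called members (21.7%). Against haematopoietic-like cells eOBs gave 6 without the OBs over 1% Col2a1 (56.1%). Where haematopoietic-like cells had fewer than 3 chondrocyte markers, which lowers their cartilage transcripts by construction and leaves 18 cells in S7 and 13 in S8, mOBs gave 9 (65.0%) and erythroid-like cells 10 (65.2%). Where unclassified cells had fewer than 3 of them, 6 members were called against haematopoietic-like cells (67.6%) and 3 between Het and WT (1.09%), with Sox6 at -0.0707. Leaving out 1 library at a time gave 0 to 2 in mOBs (2 without S7, 1.91%), 1 to 7 in unclassified cells (0.425% to 2.25%), and 1 to 6 for erythroid-like cells (6 without S1, 1 without S2 or S3).

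Signs turned for 6 members between Het and WT in Col2a1-high cells, none of them called. In kit 3.1 alone Acan was 0.055, Matn1 -0.0488, Hapln1 0.0678 and Cnmd -0.0186, and in kit 3 alone Comp was -0.0427 and Matn4 -0.0518. Thinned to 2000 UMIs, Matn4 was -0.0226 and Cnmd -0.0003, and with Col2a1 over 2% Cnmd was -0.0087. Without each library in turn Acan ran from -0.0930 to 0.0679, Matn1 from -0.0877 to 0.2437, Matn4 from -0.0612 to 0.1621 and Cnmd from -0.0102 to 0.0474. Without the OBs over 1% Col2a1, the eOB minus mOB difference was -0.7353 for Acan and -0.1993 for Hapln1, and Matn1 in eOBs against haematopoietic-like cells was -0.0214. Sox6 in eOBs against mOBs was 0.0878 with mitochondrial UMIs under 5%, 0.1373 thinned, 0.1628 in kit 3.1 alone, and -0.2656 to 0.0482 without each library.

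In mOBs against haematopoietic-like cells, leaving out the OBs over 1% Col2a1 gave -0.0231 for Comp, -0.3328 for Matn1, -0.1478 for Matn3 and -0.5574 for Cnmd. Mitochondrial UMIs under 5% gave -0.2393 for Matn1, -0.0736 for Matn3 and -0.393 for Cnmd. Thinning gave -0.3051 for Matn3, 0.1404 for Matn4 and -0.1381 for Cnmd, and kit 3.1 alone -0.0711 for Matn3 and -0.1723 for Cnmd. With Col2a1-high cells taken over 2% Col2a1, Comp was -0.0182, Matn1 -0.232, Matn3 -0.573 and Cnmd -0.6144, and with 0.5% Matn4 was 0.1585. Matn4 was 1.4824 where haematopoietic-like cells had fewer than 3 chondrocyte markers. Without each library Matn1 ran from -0.0473 to 0.4545, Matn4 from -0.2929 to 0.1366 and Cnmd from -0.2463 to 0.1818. Matn4 ran from -0.1878 to 0.8182 for erythroid-like against haematopoietic-like cells and from -0.3120 to 0.0234 for unclassified against Col2a1-high cells. The cause of these changes was not tested.

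The replicate numbers of the labels did not pair the libraries (correlation of same-numbered deviations 0.0353 with kit 3 and 0.115 with kit 3.1). With the replicate number as a block within kit, 0 members were called in Col2a1-high cells, eOBs, dOBs, mOBs and the remaining cells, and 6 in unclassified cells. The eOB sums held 204130 to 1296848 UMIs from 22 to 95 cells per library, which limits low members there.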

Other observations

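Other cartilage genes also separated eOBs from mOBs, with the eOBs over 1% Col2a1 included (edgeR, library as a block, 28.5% of all genes called). Of 7 cartilage collagen genes 5 were higher in eOBs and none lower, with Col9a2 at 2.84 ± 0.48 and Col9a3 at 2.83 ± 0.54 (log2 ± SE). Of 12 tested genes of other cartilage matrix 8 were higher and 2 lower: Prg4, the gene of lubricin, was at 3.98 ± 0.80 and Ucma at 3.48 ± 0.31, while Dcn (-1.40) and Bgn (-0.97), small proteoglycans of bone and soft tissue, were lower. Of 8 genes of proteoglycan synthesis 2 were higher and 2 lower, with Csgalnact1 at 3.18 and Xylt1 at 1.80 against Chpf at -0.89 and Chsy1 at -0.88. Of 10 regulators 4 were higher and 2 lower, with Sox11 at 2.29 and Pth1r, the receptor of parathyroid hormone, at -1.43. Of 5 hypertrophic genes Mmp13 was higher (1.96), and Ibsp (-3.75), which was used to select OBs, and Ihh (-3.02) were among 3 that were lower. Of 8 cell cycle genes 5 were higher, Birc5 by 1.10 and Top2a by 1.08.

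In the 122 glial-like cells Sox5 stood at 56.2 CPM in S3 and 107 in S4, and at 410 in S5 and 724 in S7. Sox6 was 105, 144, 819 and 686 CPM in the same libraries. The other 4 libraries had fewer than 10 glial-like cells, and no test was run.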
